A study of Arabidopsis thaliana with 6 samples.

Results

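The Argonaute family of Arabidopsis thaliana comprises AGO1 to AGO10, and all 10 genes, taken by locus as the members of this family, were among the 30361 gene models measured. RNA from young leaves was hybridised to NimbleGen long-oligonucleotide arrays in 1 colour (Cy3), with 2 arrays each for wild type Col-0, the kyp mutant and the cmt3 mutant. Plants of the 3 genotypes had grown on soil for 4 weeks under long days and received no treatment. The alleles of kyp and cmt3 are not named. Separate plants or extractions for the paired arrays are not mentioned either, so each p-value reflects array-to-array spread that may be technical. KYP (SUVH4) methylates histone H3 at K9, and CMT3 is a chromomethylase that keeps up DNA methylation at CHG sites. The design asks which leaf transcripts differ when either gene is mutated.

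Argonaute proteins bind small RNAs and use them as guides to matching transcripts or chromatin. In Arabidopsis they form 3 clades. AGO1, AGO5 and AGO10 make up the first, AGO2, AGO3 and AGO7 the second, and AGO4, AGO6, AGO8 and AGO9 the third. AGO1 is the main effector of miRNAs and of transcript cleavage. AGO4 and AGO6 carry the siRNAs that direct DNA methylation, and AGO4, KYP and CMT3 were each found in genetic screens for release of SUPERMAN silencing.

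The unit throughout is the log2 of the RMA-normalized intensity, so a difference of 1 is a doubling. RMA is a normalization that makes arrays comparable and combines the probes of a gene into 1 value. The array medians lay between 9.89 and 9.96, and arrays of the same genotype correlated across genes at Pearson's r of 0.986 to 0.987, and arrays of different genotypes at 0.968 to 0.988. CMT3 transcript, the check on the cmt3 label, stood at 12.61 and 12.59 in wild type and at 10.94 and 10.97 in cmt3, and it fell 3.13-fold (adjusted p = 0.0159, limma). KYP stood at 10.24 and 10.19 in wild type and at 10.04 and 9.91 in kyp, which did not pass (adjusted p = 0.515, limma), and the position of its probes relative to the mutation is unknown. Of 5 photosynthesis genes that mark leaf, 4 lay between 15.80 and 15.98 in every array, and LHCB1.1 lay between 9.73 and 10.28. The 4 bright genes stood near the upper end of the intensities, where differences can be compressed. The meristem genes WUS, CLV3 and STM stood at 6.67 or lower in all 6 arrays, and KNAT1 between 5.90 and 7.15. None of the 20 marker genes passed in any comparison (limma). The summed level of the 2 root markers was 7.92 to 8.66 in wild type, 8.52 to 9.39 in kyp and 9.03 to 9.44 in cmt3, so that kyp overlapped both others. That of the 3 seed storage markers was 8.17 to 8.22 in wild type, 8.51 to 8.60 in kyp and 7.10 to 8.04 in cmt3, with no overlap. The sum followed its brightest member, AT2S1. CRC differed from it, with its lowest values in kyp (4.10 and 4.62, against 4.87 and 4.93 in wild type). OLEO1 in cmt3 (6.10 and 4.99) overlapped both other genotypes, and CRC and OLEO1 lay in the lowest 25% of models. The part of the root and seed storage markers in the results below was not tested. The labels state no slide, and a number shared by image names in the files was taken as the slide here. By it, slide 1 held both wild type arrays with kyp replicate 1, and slide 2 held kyp replicate 2 with both cmt3 arrays. Wild type and cmt3 shared no slide, so a fit with the slide as a block sets them against each other through the 2 kyp arrays.

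No Argonaute gene passed an adjusted p of 0.05 (limma) in any of the 3 comparisons. Of all models 0.105% passed between kyp and wild type, 0.741% between cmt3 and wild type and 0.0296% between kyp and cmt3. At an unadjusted p under 0.05 there were 2 members in kyp against wild type (AGO2 and AGO4), beside 10.2% of all models. There were 3 in cmt3 against wild type (AGO2, AGO7 and AGO10), beside 23%, and 1 in kyp against cmt3 (AGO10), beside 12.5%. The smallest p-values of the family were those of AGO2, which stood lower in cmt3 than in wild type, and of AGO10, which stood higher. In a fit whose variances were moderated along intensity, these 2 passed in cmt3 against wild type (adjusted p = 0.023 for AGO2 and 0.0219 for AGO10, limma with an intensity trend). In that fit 7.48% of all models passed. In leaf RNA, fewer cells of a type that expresses a gene and less RNA per cell cannot be told apart.

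**Figure D1:**
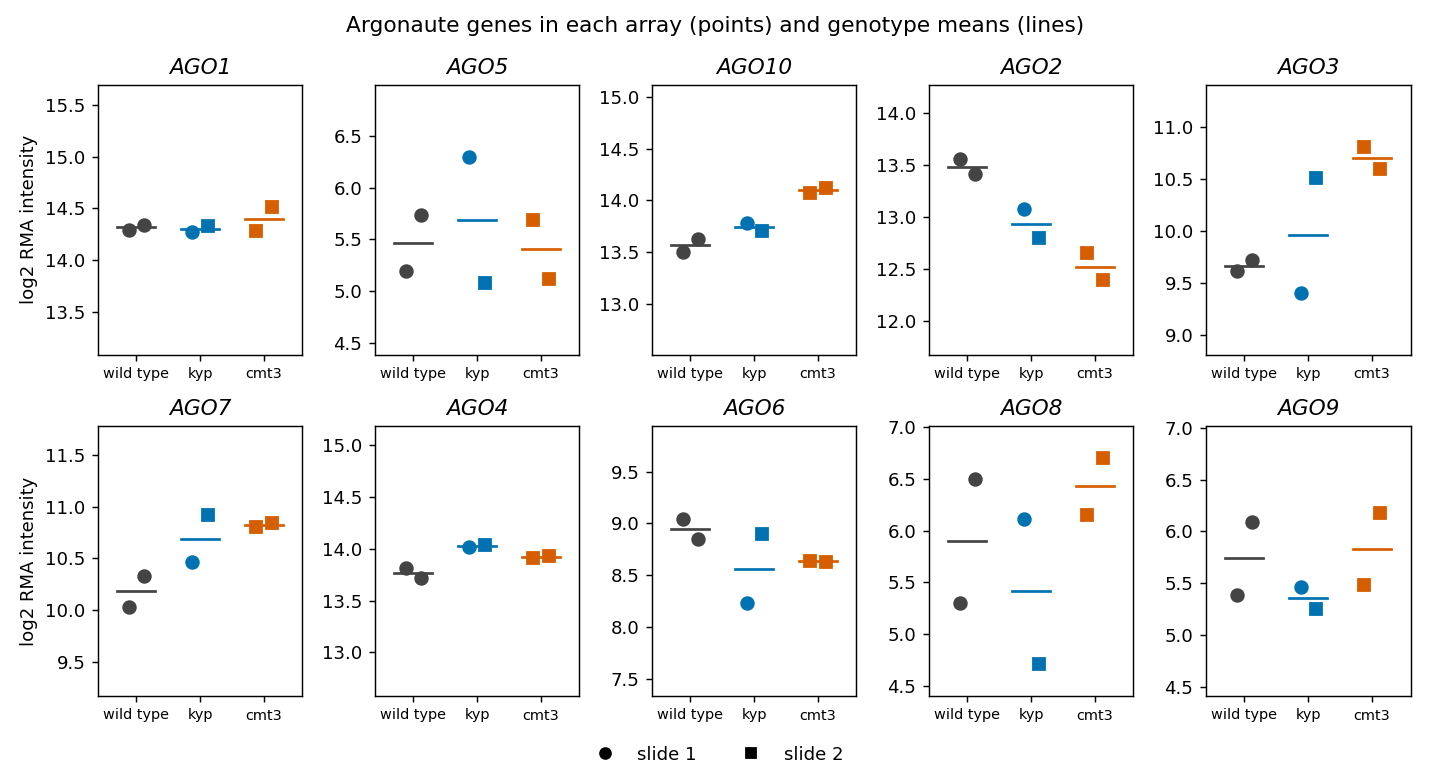
Log2 RMA intensity of each Argonaute gene in each array, with genotype on the x axis, points for arrays, circles for slide 1, squares for slide 2 and short lines for genotype means; every panel spans the same 2.6 log2 units. AGO2 is highest and AGO10 lowest in wild type, with kyp between wild type and cmt3, and in AGO3 the kyp array of slide 1 sits with wild type (9.41) and the kyp array of slide 2 with cmt3 (10.52).

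AGO1 (AT1G48410), which loads most miRNAs and is itself a target of miR168, differed between the genotypes by less than its spread. It lies on chromosome 1 from 17889766 to 17896236 in the coordinates of the files (marked Release 6) and was read by 3 probes. Its log2 intensity was 14.29 and 14.34 in wild type, 14.27 and 14.33 in kyp, and 14.28 and 14.51 in cmt3. The groups overlapped in every comparison. The difference from wild type was -0.02 ± 0.12 (SE) in kyp and 0.08 ± 0.12 in cmt3 (adjusted p = 0.976 and 0.731, limma). The 95% confidence intervals placed AGO1 between 0.792 and 1.23 times its wild type level in kyp and between 0.848 and 1.32 times in cmt3. AGO1 stood near the upper end of the intensities, where differences can be compressed.

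AGO10 (AT5G43810; ZWILLE, PINHEAD), the closest relative of AGO1, keeps miR165 and miR166 from AGO1 and maintains the shoot meristem. It spans 17628199 to 17634024 on chromosome 5. Its intensity was 13.51 and 13.63 in wild type, 13.78 and 13.70 in kyp, and 14.07 and 14.12 in cmt3. No arrays of different genotypes overlapped, and the order was wild type, kyp, cmt3. The kyp and wild type arrays also did not overlap in 45% of all models. The shares were 57.4% for cmt3 and wild type and 48.3% for kyp and cmt3. Against wild type, cmt3 was higher by 0.53 ± 0.10 (SE), or 1.44-fold with a 95% interval of 1.20 to 1.74 (adjusted p = 0.102, limma). The kyp arrays were higher by 0.17 ± 0.10 (adjusted p = 0.621), and kyp stood below cmt3 by -0.36 ± 0.10 (adjusted p = 0.361). These comparisons share arrays, so they are not independent of each other. The order within slides could not differ, as no arrays overlapped. On slide 1, kyp replicate 1 lay 0.21 above the mean of wild type. On slide 2, kyp replicate 2 lay at -0.39 relative to the mean of cmt3. With the slide as a block, which joins these 2 gaps, the difference between cmt3 and wild type was 0.60 ± 0.19 (adjusted p = 0.641, limma). Of the 4 meristem markers none passed in any comparison and 3 lay in the lowest 25% of models (WUS, CLV3 and STM). Their summed level ranged from 7.54 to 8.22 in wild type, 7.38 to 7.93 in kyp and 7.67 to 7.99 in cmt3, and its part in the AGO10 values was not tested.

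AGO5 (AT2G27880), a germ line member of the same clade, was dim in every leaf array. It stood at 5.20 and 5.73 in wild type, 6.30 and 5.08 in kyp, and 5.69 and 5.12 in cmt3. Its arrays overlapped in all 3 comparisons, and the 2 kyp arrays, which differed by -1.21 (replicate 2 minus replicate 1), enclosed all the others. AGO5 lies on chromosome 2 from 11878565 to 11883789.

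AGO2 (AT1G31280), which acts in defence against viruses and bacteria and is a target of miR403, was lower in both mutants than in wild type. It spans 11181758 to 11185093 on chromosome 1 and was read by 2 probes. Its intensity was 13.56 and 13.42 in wild type, 13.08 and 12.80 in kyp, and 12.66 and 12.39 in cmt3. The arrays of the genotypes did not overlap, and the order ran opposite to that of AGO10. In cmt3 the difference from wild type was -0.96 ± 0.16 (SE), or 1.95-fold, and the 95% interval placed it at 0.378 to 0.694 times the wild type level (adjusted p = 0.0941, limma). In kyp the difference was -0.55 ± 0.16, or 1.47-fold, with an interval of 0.504 to 0.924 times (adjusted p = 0.427). The difference between the mutants was 0.41 ± 0.16 (kyp minus cmt3, adjusted p = 0.411), an interval of -0.03 to 0.85. At an adjusted p under 0.10, AGO2 was the 1 member that passed in cmt3 against wild type, beside 4.17% of all models. Within slide 1, kyp replicate 1 lay at -0.41 relative to the mean of wild type. Within slide 2, kyp replicate 2 lay 0.27 above the mean of cmt3. Both signs were fixed in advance, as no arrays overlapped. With the slide as a block, which joins these 2 gaps, the cmt3 value was -0.68 ± 0.26 (adjusted p = 0.677, limma).

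AGO3 (AT1G31290) is a close paralog of AGO2 and lies next to it, from 11188274 to 11192298, with 3.18 kb between them, and in cmt3 it differed from wild type in the opposite direction. Its intensity was 9.61 and 9.72 in wild type, 9.41 and 10.52 in kyp, and 10.81 and 10.60 in cmt3. The wild type and cmt3 arrays did not overlap, but the kyp arrays lay 1.11 apart, one with each of the other genotypes. The difference between cmt3 and wild type was 1.04 ± 0.39 (SE), or 2.06-fold with an interval of 0.994 to 4.25 (adjusted p = 0.22, limma), and that between kyp and wild type was 0.30 ± 0.39 (adjusted p = 0.837). All 3 arrays of slide 1 stood between 9.41 and 9.72, and all 3 of slide 2 between 10.52 and 10.81. With the slide as a block the difference between cmt3 and wild type turned to -0.07 ± 0.23 (adjusted p = 0.945) and that between kyp and wild type to -0.26 ± 0.16 (adjusted p = 0.824). The root marker PYK10 stood at 8.41 and 7.75 in wild type, 8.36 and 9.31 in kyp, and 9.35 and 8.95 in cmt3. It too was higher in every array of slide 2 than in any of slide 1. Slides did not overlap for 28.5% of all models. RHD6, the other root marker, overlapped between the slides. It stood at 5.98 and 4.71 in wild type, 5.31 and 5.32 in kyp, and 5.49 and 4.82 in cmt3. The part of either marker in the AGO3 values was not tested. Each of AGO2 and AGO3 was read by 2 probes, and whether a probe of one also binds the other was not tested.

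AGO7 (AT1G69440; ZIPPY) binds miR390, starts the synthesis of TAS3 tasiRNAs and sets the timing of juvenile leaf traits. It lies on chromosome 1 from 26104722 to 26108829, 143 kb from CMT3. Its intensity was 10.04 and 10.33 in wild type, 10.47 and 10.91 in kyp, and 10.80 and 10.84 in cmt3. Both mutants stood above wild type without overlap, and kyp and cmt3 overlapped. The difference from wild type was 0.51 ± 0.20 (SE) in kyp and 0.64 ± 0.20 in cmt3, or 1.42-fold and 1.56-fold (adjusted p = 0.503 and 0.173, limma). The arrays of slide 2 were again all above those of slide 1, and with the slide as a block the differences were 0.28 ± 0.18 and 0.19 ± 0.26 (adjusted p = 0.828 and 0.863). AGO2, AGO3 and AGO7 were the 3 of 10 members whose slides did not overlap, near the share among all models (28.5%). Their directions differed, as AGO2 stood lower on slide 2 and AGO3 and AGO7 higher.

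AGO4 (AT2G27040), the main Argonaute of siRNA-directed DNA methylation, stood slightly higher in both mutants. It lies on chromosome 2 from 11543612 to 11549431. Its intensity was 13.82 and 13.72 in wild type, 14.02 and 14.04 in kyp, and 13.91 and 13.93 in cmt3. The 3 genotypes did not overlap, and here kyp, not cmt3, lay farthest from wild type. The difference was 0.26 ± 0.09 (SE) in kyp, or 1.20-fold with an interval of 1.01 to 1.42 (adjusted p = 0.476, limma), and 0.15 ± 0.09 in cmt3 (adjusted p = 0.402). On slide 1 alone kyp replicate 1 lay 0.25 above the mean of wild type. The fit with the slide as a block returns this same difference by design, since only slide 1 holds both genotypes (0.25 ± 0.13, adjusted p = 0.779, limma). The kyp and cmt3 values differed by 0.11 ± 0.09 (adjusted p = 0.646).

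AGO6 (AT2G32940), which works beside AGO4 in DNA methylation, had its lowest value in kyp. It spans 13979295 to 13983933 on chromosome 2. Its intensity was 9.04 and 8.85 in wild type, 8.23 and 8.90 in kyp, and 8.64 and 8.63 in cmt3. Wild type stood above cmt3 without overlap, whereas the kyp arrays lay 0.66 apart and overlapped both. The differences from wild type were -0.38 ± 0.25 (SE) in kyp and -0.31 ± 0.25 in cmt3 (adjusted p = 0.661 and 0.511, limma). Leaving out a kyp array moved the kyp value to -0.71 (without replicate 2) or -0.05 (without replicate 1). With the slide as a block the cmt3 value was -0.97 ± 0.21 (adjusted p = 0.532).

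AGO8 and AGO9 (AT5G21150), neighbours on chromosome 5 with 48.0 kb between them, were as dim as AGO5. AGO9 acts in ovules, where it restricts which cells enter the germ line, and AGO8 is regarded as a likely pseudogene. AGO8 (AT5G21030, which has no symbol in the files or in RefSeq) stood at 5.31 and 6.49 in wild type, 6.12 and 4.72 in kyp, and 6.16 and 6.70 in cmt3. AGO9 stood at 5.39 and 6.09 in wild type, 5.46 and 5.25 in kyp, and 5.48 and 6.18 in cmt3. For both genes the mutants overlapped wild type, and kyp lay below cmt3 without overlap, by -1.01 ± 0.65 (SE) for AGO8 and -0.47 ± 0.35 for AGO9 (adjusted p = 0.559 and 0.61, limma). Leaving out 1 array moved these differences over a range of -1.71 (without kyp replicate 1) to -0.31 (without kyp replicate 2) for AGO8 and -0.82 (without cmt3 replicate 1) to -0.12 (without cmt3 replicate 2) for AGO9. With AGO5 these 2 were the members whose mean lay in the lowest 25% of models, under 6.20. Of 6 flower and germ line markers, 3 lay there too and none passed in any comparison. Their summed level was 9.80 to 10.18 in wild type, 10.07 to 10.20 in kyp and 9.66 to 9.89 in cmt3, and its part in these values was not tested. With no detection calls in the files, no member can be said to be on or off. The fit left wide margins at such levels. At the largest p that passed, AGO8 with its spread would have had to differ by 82.4-fold between cmt3 and wild type to be called, against 1.87-fold for AGO4 and 1.97-fold for AGO10.

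**Figure D2:**
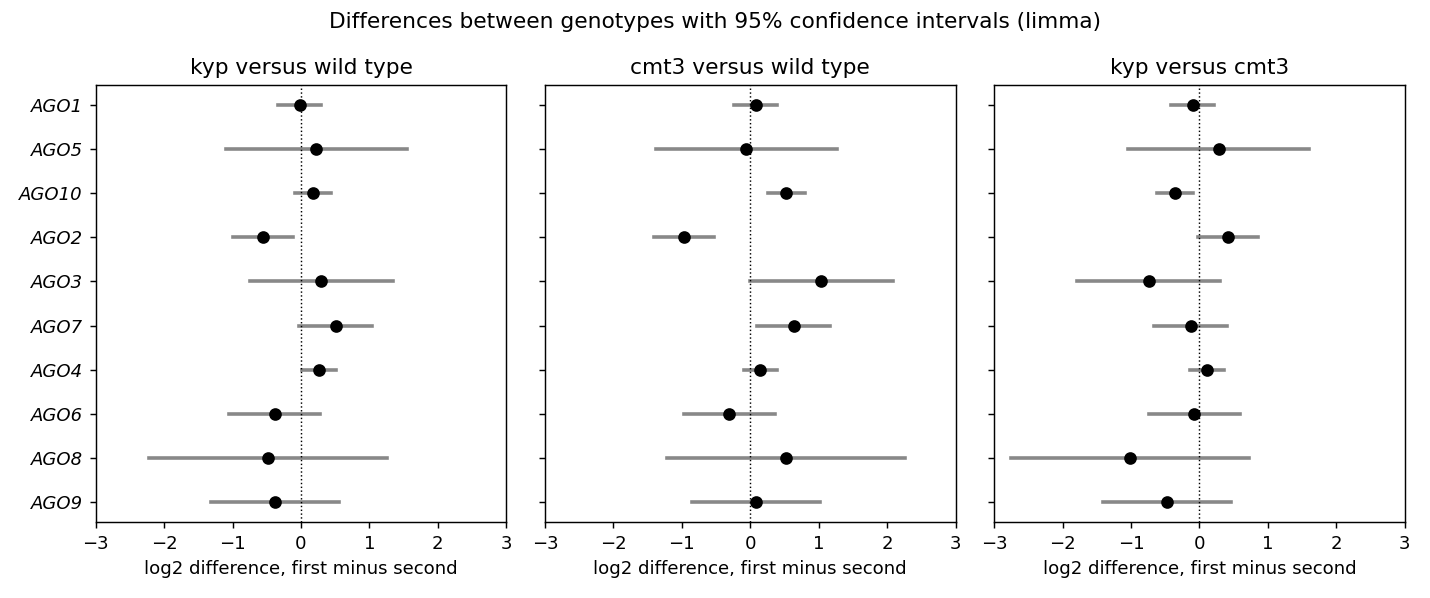
Log2 difference of each Argonaute gene (points) with its 95% confidence interval from limma (bars), by comparison; genes are ordered by clade. Intervals of AGO2 and AGO10 exclude 0 in cmt3 against wild type (-1.40 to -0.53 and 0.26 to 0.80), as does that of AGO7 (0.10 to 1.17), although no adjusted p is under 0.05, and those of AGO8, AGO5 and AGO3 are widest.

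Spread between arrays was wider for dim genes than for bright ones, over most of the range of all models and in the family. The standard error of a difference was 0.09 for AGO4 and 0.10 for AGO10, below the median of models at their level (0.11). It was 0.16 for AGO2 (median at its level 0.12) and 0.39 for AGO3 (median 0.15), the gene whose kyp arrays lay apart. For the dim AGO5, AGO9 and AGO8 it was 0.49, 0.35 and 0.65, where the medians of models at their levels were 0.42, 0.42 and 0.42. AGO2 and AGO10 are the members that passed under the intensity trend, a setting that moves each gene's variance towards the variance of genes of like intensity.

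**Figure D3:**
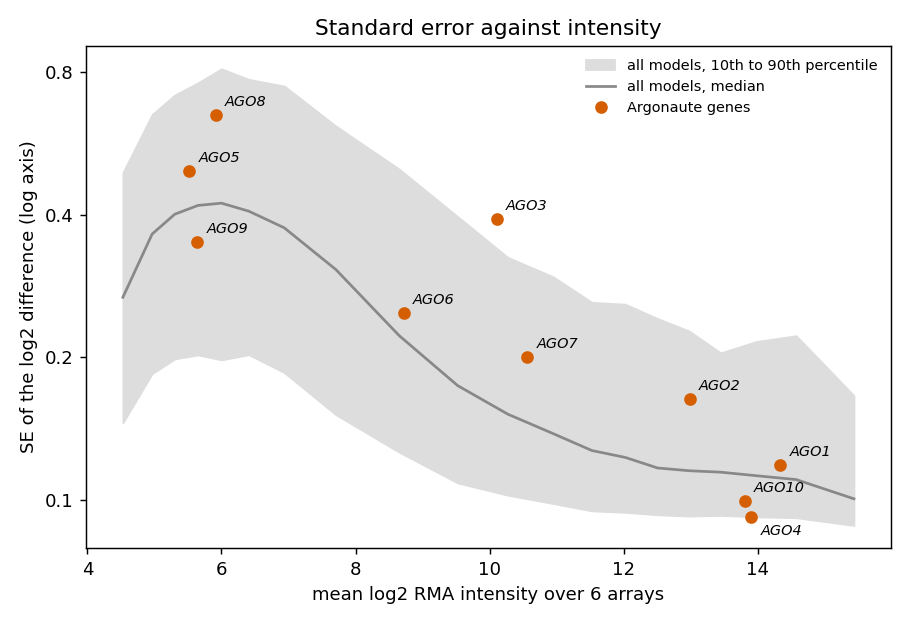
Standard error of a log2 difference (log axis) against mean log2 intensity over the 6 arrays; the grey line and band are the median and the 10th to 90th percentile of all models in 20 bins of intensity, and points are Argonaute genes. AGO3 (0.39) lies above the band, AGO4 (0.09) and AGO10 (0.10) below the line, and the 3 dim members at the upper left.

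Taking the family as a whole, 4 of 10 members had kyp arrays that did not overlap wild type (3 higher, 1 lower), beside 45% of all models (23% higher, 22% lower). For cmt3 against wild type it was 6 of 10 (4 higher, 2 lower), beside 57.4% (32.4% higher, 25% lower), and for kyp against cmt3 also 6 of 10 (2 higher, 4 lower), beside 48.3% (20.3% higher, 28% lower). The median difference of the 10 members was 0.08 in kyp and 0.12 in cmt3, against 0.00 and 0.03 over all models. The median size of a difference, whatever its sign, was 0.34 in kyp and 0.42 in cmt3, against 0.19 and 0.28 over all models.

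**Figure D4:**
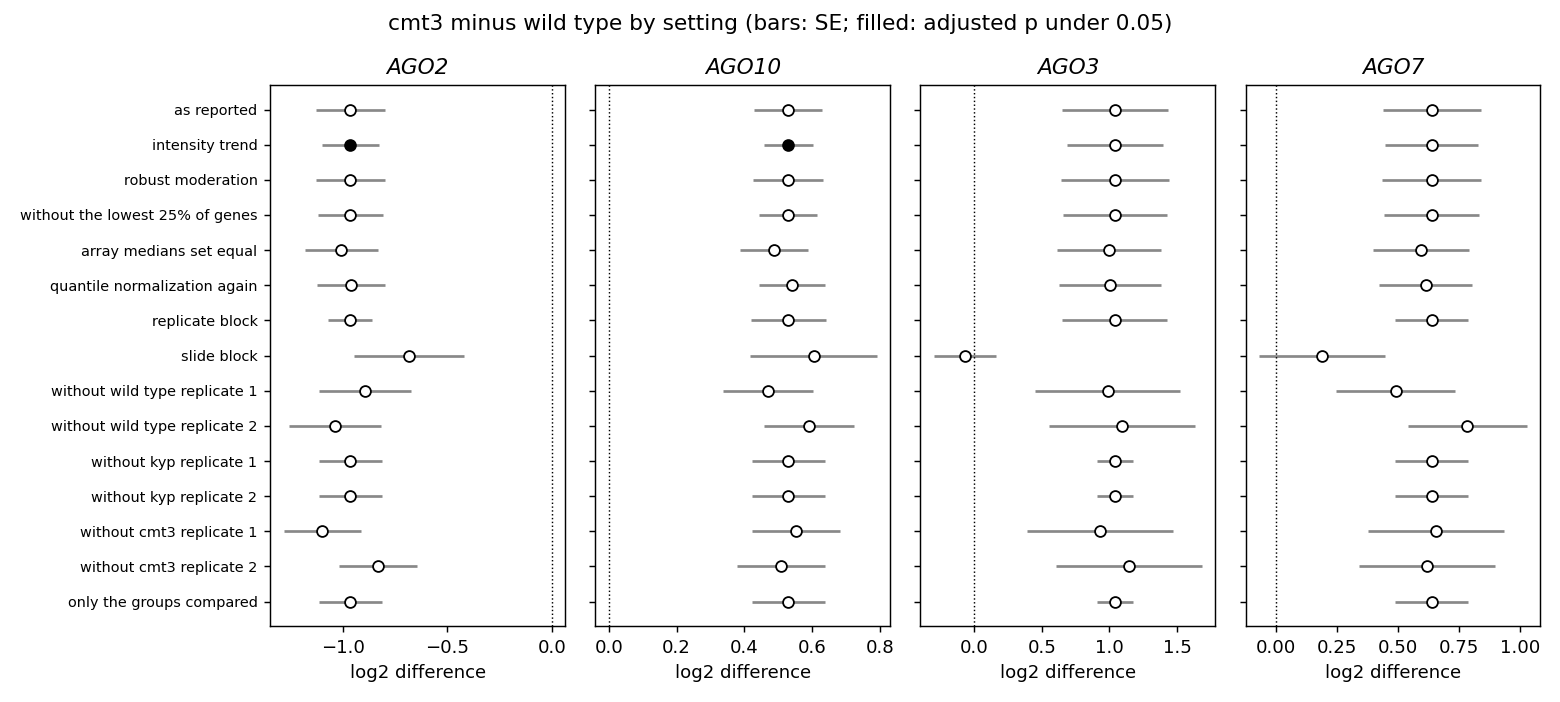
Difference between cmt3 and wild type for AGO2, AGO10, AGO3 and AGO7 (log2, x axis) under each setting of the fit (rows), with standard errors as bars and filled points where the adjusted p was under 0.05. Only the intensity trend fills AGO2 and AGO10, and the slide block brings AGO3 to -0.07 and AGO7 to 0.19.

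Genes that make, stabilise or load the small RNAs were compared next, from a list of 18, all measured. None passed in any comparison (limma), 16 of 18 lay above wild type in kyp, beside 50.7% of all models, and 16 of 18 in cmt3, beside 54.1%. The medians were 0.10 and 0.11, against 0.00 and 0.03 over all models. The differences were small: their median size, whatever the sign, was 0.11 in kyp and 0.11 in cmt3, below the 0.19 and 0.28 of all models. In kyp 12 of the 18 had both arrays above both wild type arrays, beside 23% of all models, and in cmt3 9 of the 18, beside 32.4%. SQN, a cyclophilin that works with HSP90 in loading AGO1, had the smallest p in cmt3 against wild type. It stood at 12.48 and 12.47 in wild type, 12.82 and 12.83 in kyp, and 13.93 and 13.61 in cmt3. The cmt3 arrays were well above all others, a difference of 1.29 ± 0.14 (SE), or 2.45-fold, that narrowly missed the threshold (adjusted p = 0.0547, limma). Between kyp and cmt3 SQN differed by -0.95 ± 0.14 (adjusted p = 0.284), also the smallest p of the list. In kyp against wild type that place was held by HST, an exporter of miRNAs from the nucleus, at 0.31 ± 0.10 (adjusted p = 0.457). The Dicer gene DCL1, which cuts miRNA precursors, stood at 0.19 in kyp and 0.66 in cmt3 relative to wild type (adjusted p = 0.684 and 0.106). DCL2, DCL3 and DCL4 lay between -0.02 and 0.10 in both, and the RNA-dependent RNA polymerase genes RDR1, RDR2 and RDR6 between 0.06 and 0.32. FBW2, an F-box protein that acts on AGO1, stood at -0.11 in kyp and 0.05 in cmt3.

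The partners of AGO4, AGO6 and AGO9 in RNA-directed DNA methylation, among them subunits of RNA polymerases IV and V and the methyltransferase DRM2, lay near their wild type levels. None of the 14 passed in any comparison (limma), the medians were 0.04 in kyp and 0.12 in cmt3, and 11 of 14 lay above wild type in each, beside the same 50.7% and 54.1% of all models. Differences from wild type ran from -0.20 to 0.26 in kyp and from -0.28 to 0.44 in cmt3. SHH1, which recruits RNA polymerase IV to methylated H3K9, had the smallest p in cmt3 against wild type, at 0.40 ± 0.12 (adjusted p = 0.161), and in kyp against cmt3, at -0.35 ± 0.12 (adjusted p = 0.382). CLSY1, a chromatin remodeller that acts with RNA polymerase IV, had the smallest in kyp against wild type, at -0.20 ± 0.11 (adjusted p = 0.604).

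Transcripts that AGO1, AGO7 or AGO10 act on through miRNAs or tasiRNAs gave a list of 46, all measured, of which none passed (limma). In cmt3 31 of 46 lay above wild type, with a median of 0.30, against 54.1% of all models above and a median of 0.03. The other 15 lay below wild type, the lowest at -0.85. In kyp 27 of 46 lay above, with a median of 0.09, against 50.7% and 0.00, and 19 lay below, the lowest at -0.52. Between the mutants 37 of 46 were lower in kyp than in cmt3, 31 of them without overlap of arrays, beside 28% of all models. TCP2, a leaf growth regulator that miR319 targets, had the smallest p in both comparisons with wild type. It stood at 11.90 and 12.11 in wild type, 12.42 and 12.61 in kyp, and 12.84 and 12.93 in cmt3. The genotypes did not overlap, and the differences were 0.50 ± 0.13 (SE) in kyp and 0.88 ± 0.13 in cmt3 (adjusted p = 0.386 and 0.086). The other 4 miR319 targets of the list, TCP3, TCP4, TCP10 and TCP24, were grouped with it after their values were seen. They lay on the same side. The 5 ranged from 0.18 to 0.52 in kyp and from 0.77 to 1.27 in cmt3, none passing (lowest adjusted p = 0.386 and 0.086, limma). NFYA3, a subunit of a CCAAT-binding factor targeted by miR169, had the smallest p between the mutants, at -0.55 ± 0.09 (adjusted p = 0.313).

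The targets that depend on AGO7 and AGO10 are named for their role, outside the naming rule and after their values were seen. Apart from these and the miR319 targets, the list was not divided into groups. ARF3 and ARF4, auxin response factors cut by the TAS3 tasiRNAs that AGO7 starts, stood 0.69 and 0.61 above wild type in cmt3 (adjusted p = 0.104 and 0.115, limma) and 0.21 and 0.32 above in kyp, while ARF2 stood at 0.01 and 0.03. ARF3 and ARF4 thus lay on the same side of wild type as AGO7. The 5 HD-ZIP III genes PHB, PHV, REV, ATHB8 and ATHB15, targets of the miR165 and miR166 that AGO10 sequesters, ranged from 0.23 to 0.42 in cmt3 and from 0.09 to 0.21 in kyp. All 5 were above wild type without overlap of arrays in cmt3, beside 32.4% of all models, and 4 of 5 in kyp, beside 23%, and none passed (lowest adjusted p = 0.2 and 0.646).

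**Figure D5:**
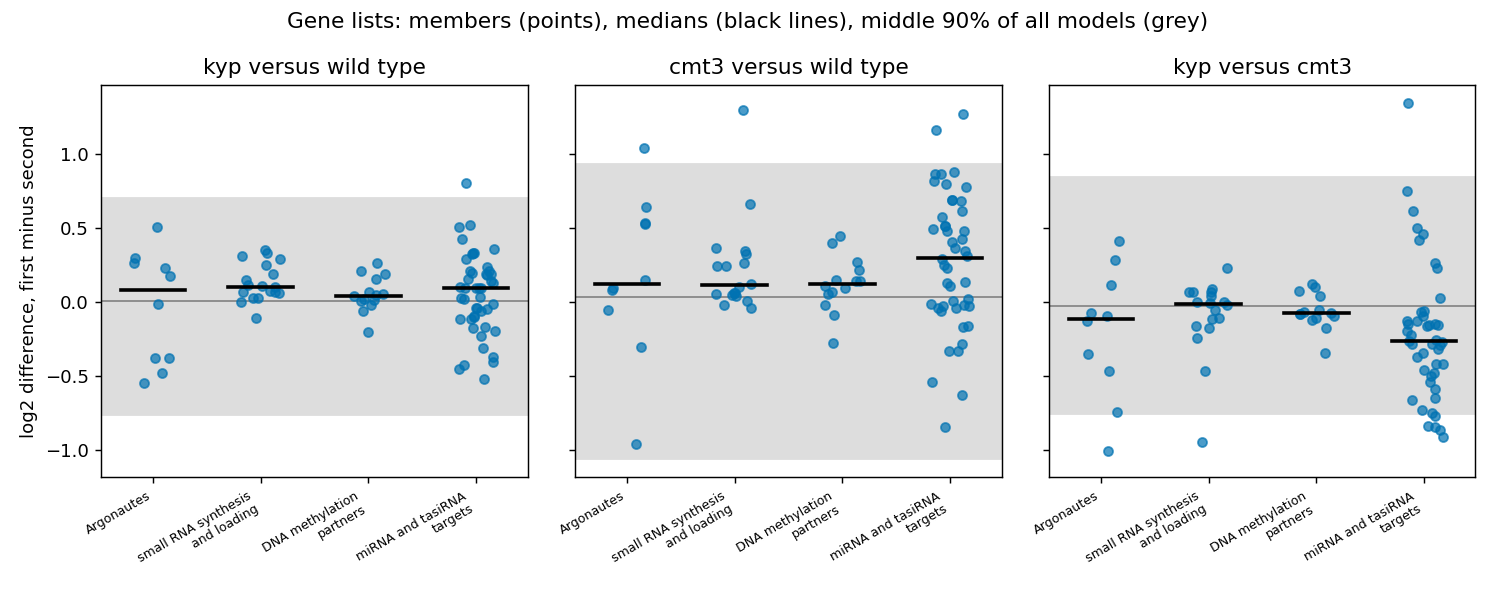
Log2 differences (y axis) of the Argonaute genes and the 3 related gene lists (x axis) in each comparison; points are genes, black lines list medians, the grey line the median and the grey band the middle 90% of all models. The median of the miRNA and tasiRNA targets stands at 0.30 in cmt3 against wild type, and AGO2 and AGO3 lie at opposite ends of the family.

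AGO3 had the widest range of genotype means in the family (1.04), and the genes of the array whose profile over the 6 arrays was nearest to it were sought by the Euclidean distance between centred log2 values. The nearest were AT5G07160 (distance 0.22), AT2G15030 (0.28), AT3G43828 (0.28), RUS4 (0.30) and CYP707A4 (0.35), which encodes an abscisic acid hydroxylase. Selection by nearness to AGO3 fixed the pattern these genes share, with kyp replicate 1 near wild type and kyp replicate 2 near cmt3. It also held their differences between cmt3 and wild type near that of AGO3, at 0.88 to 1.34. None passed (adjusted p = 0.153 to 0.196, limma). AT5G07160 and AT3G43828 lay in the lowest 25% of models. The likeness is over 6 arrays, and the 5 genes share the division between slides.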

How the data were processed

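The authors deposited 1 RMA-normalized intensity on a linear scale for each of 30361 gene models and each of 6 arrays, per the labels and the file headers, summarised from 1 to 3 probes. The sources used here do not give RMA settings, software or genome build. The deposited series table held the same values. Intensities were taken to log2 and compared in R 4.3.3 with limma 3.58.1 (lmFit, contrasts.fit and eBayes at their defaults). A single model held all 6 arrays and no block, with 3 residual and 1.41 prior degrees of freedom. Each mutant was compared with wild type, and the mutants with each other. Benjamini-Hochberg adjustment ran over all models, with a threshold of 0.05 and no filter. The fit was tested on simulated data. Loci, names and coordinates come from the files, and symbols from RefSeq of TAIR10.1, which matched 29976 loci. There are no counts, so depth does not apply, and precision is limited by how few arrays there are.

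The members, lists and tests were chosen with earlier results of these data known. The naming rule took all 10 members, KYP and CMT3, up to 3 called genes of each list or else the gene with the smallest p, and the 5 genes nearest in profile to the member with the widest range. Other genes of the lists named in the text are named for their role, outside this rule and after their values were seen. Other variance models, filters, normalizations, blocks, thresholds and omitted arrays were tried as alternatives.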

Additional observations from a re-analysis of the deposited data

How the results depend on the processing

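No Argonaute gene was called in kyp against wild type or in kyp against cmt3 under any alternative run, and in cmt3 against wild type the count was 0 except with an intensity trend (2, AGO2 and AGO10) and at an adjusted p under 0.10 (1, AGO2). Under the trend AGO2 stood at -0.96 and AGO10 at 0.53. Of the 30 differences (10 members in 3 comparisons), 17 kept their direction under every alternative, among them all those of AGO2, AGO4 and AGO10. Many alternatives could not turn a direction. Other variance models, the filter, the replicate block, a fit of only the groups compared and omission of a third-genotype array leave the difference unchanged. In comparisons with kyp, the slide block, the fit within a slide and omission of the kyp array on the other slide give the same value. For AGO2, AGO4 and AGO10 no arrays of different genotypes overlapped. Leaving out 1 array or fitting within a slide could therefore not turn their directions. For AGO2 and AGO10, with kyp between the others, the slide block could not turn cmt3 against wild type either. With the slide as a block the direction turned for AGO3 in kyp (-0.26) and in cmt3 (-0.069) and for AGO8 in kyp (0.22) and AGO5 in cmt3 (1.16), all against wild type, and between kyp and cmt3 for AGO5 (-0.32), AGO6 (0.26) and AGO7 (0.094); the values within a slide were the same for the comparisons that a slide holds. The slide divides the kyp arrays, and the cause was not tested. Leaving out 1 array turned AGO1 in kyp (range -0.047 to 0.010) and cmt3 (-0.035 to 0.20), AGO3 in kyp (-0.26 to 0.85), AGO5 in kyp (-0.38 to 0.83) and cmt3 (-0.34 to 0.22), AGO8 in kyp (-1.18 to 0.22) and cmt3 (-0.067 to 1.12) and AGO9 in cmt3 (-0.26 to 0.44). Between kyp and cmt3 it turned AGO1 (-0.21 to 0.016), AGO5 (-0.32 to 0.89), AGO6 (-0.41 to 0.26) and AGO7 (-0.35 to 0.094). Without 1 array AGO2 in cmt3 ranged from -1.10 to -0.83 (adjusted p = 0.111 to 0.289, limma) and AGO10 from 0.47 to 0.59 (adjusted p = 0.151 to 0.303). The filter on dim genes left AGO5, AGO8 and AGO9 without a value.

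Over all genes the calls in kyp against wild type, cmt3 against wild type and kyp against cmt3 numbered 32, 225 and 9. They were 85, 2272 and 24 with an intensity trend, 102, 1266 and 19 at an adjusted p under 0.10, and 63, 502 and 17 when the dimmest 25% of genes were left out. They were 0, 39 and 0 with only the groups compared, 0 in each with the slide as a block, and 0 within slide 1 and within slide 2. Without 1 array they were 0, 32 to 84, and 0. Same-numbered arrays did not deviate together (correlations of -0.12, 0.00 and -0.04). In kyp the numbers also divide the slides, so whether the numbers pair the arrays cannot be told from this. With the replicate block the calls were 0, 69 and 0, and no Argonaute gene passed. The series table gave no other values and was not run.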
